A study of Caenorhabditis elegans with 6 samples.

Results

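Chromosome III of Caenorhabditis elegans carried 699 of the 4511 regions in the combined file of a NanoDam experiment on the transcription factor EGL-43 (15.5%). A region was a member if its chromosome was III, and no measured value entered the choice. NanoDam uses a nanobody against GFP that is fused to Dam, an enzyme that methylates adenine in GATC, so that DNA close to a GFP-tagged protein is marked. Controls were L3 larvae of strain DQM986 (genotype bmdSi244), which carried the Dam fusion as a single-copy insertion under an anchor cell promoter and no GFP-tagged protein (3 samples). The tagged animals were L3 larvae of strain DQM975 (bmdSi244; egl-43(bmd88)), which carried the same insertion and EGL-43::GFP from the endogenous locus (3 samples). The sample titles name the fusion after lin-29. All animals were grown for 3 generations on bacteria that lack Dam. DNA came from whole animals, about 5000 per sample, so the anchor cell was selected only by the promoter, and whether other cells contributed methylated DNA was not tested.

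EGL-43 is a zinc finger protein of the EVI1 family. The anchor cell is a single gonadal cell of the larva that induces the vulva and then invades through the basement membrane, and EGL-43 is known to keep it out of the cell cycle and to promote its invasive behaviour. The centres of worm autosomes are rich in broadly expressed genes and recombine little, whereas the arms recombine more and hold more repeats and heterochromatin.

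Each of the 3 peak lists compares a tagged sample with its equally numbered control, so the background measured in controls is already part of each score and no separate control value was used. The score is a number the authors gave to each peak, and whether it is a linear or a log ratio is not stated in the sources used here. Peaks were ordered by it within a list. Regions were also ranked by their lowest raw score over lists, and means and SDs over the scores of a region are given. The lists differ in their median score, so a ranking by percentile within the list gives another order. Percentiles are given for some of the regions only. Library depth is unknown, so absence of a peak from a list and too few reads cannot be told apart. Nothing in the labels says that the numbered samples came from separate cultures, so the spread between lists may be technical. All positions below are on chromosome III, counted from 1, in the build ce10 that the submitters' processing notes name.

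The 699 regions covered 924 kb, or 6.70% of the span of 13.8 Mb up to the last base that a peak or region reached. Their median width was 1074 bp, with quartiles of 699.5 and 1638.5 bp. The narrowest had 69 bp and the widest 7786 bp. There were 100 regions under 500 bp and 9 over 5000 bp. The widest, from 11954194 to 11961979, was a single list 2 peak with a score of 2.78, and list 1 had a peak on 2.07% of it with a score of 2.10. Another of the 3 widest, from 12341833 to 12348372 (6540 bp), was a list 2 peak alone, with a score of 3.52. Neighbouring regions were a median of 9569 bp apart (quartiles 3573.5 and 22990.8 bp over 698 gaps). Close neighbours were common, since 87 gaps were under 1500 bp and 5 under 100 bp. At the other extreme 13 gaps exceeded 100 kb.

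Regions were not spread evenly. With the span divided into 3 equal segments at 4.59 and 9.19 Mb, 165 midpoints lay in the left segment, 291 in the central one and 243 in the right one. This corresponds to 35.9, 63.4 and 52.9 regions per Mb. The central segment held 41.6% of the regions (95% Wilson interval 38.0 to 45.3%, counting error only), where an even spread would place 33.3%. The other autosomes ranged from 41.3 to 46.0%. Median gaps followed the same order, with 13199.5 bp on the left, 7628 bp in the centre and 9569 bp on the right. Widths did not follow it, since medians were 1129, 1095 and 994 bp.

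Counts differed more at a finer scale. Of 10 equal bins along the span, bin 2 (1.38 to 2.76 Mb) had 24 regions and bin 7 (8.27 to 9.65 Mb) had 104. The 3 widest empty stretches all lay in or next to bin 2. The longest, 257288 bp, ran between a region of list 1 at 1482852 to 1482923 and a region of list 2 at 1740212 to 1742150. The next longest, 175185 bp, began at that same list 2 region, which therefore had no neighbour within 100 kb on either side. Counts recovered in the outermost bins, with 52 regions at the left end and 67 at the right end. The first region ran from 62229 to 63561 and the last from 13778256 to 13778760, and neither had a peak in any list.

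**Figure D1:**
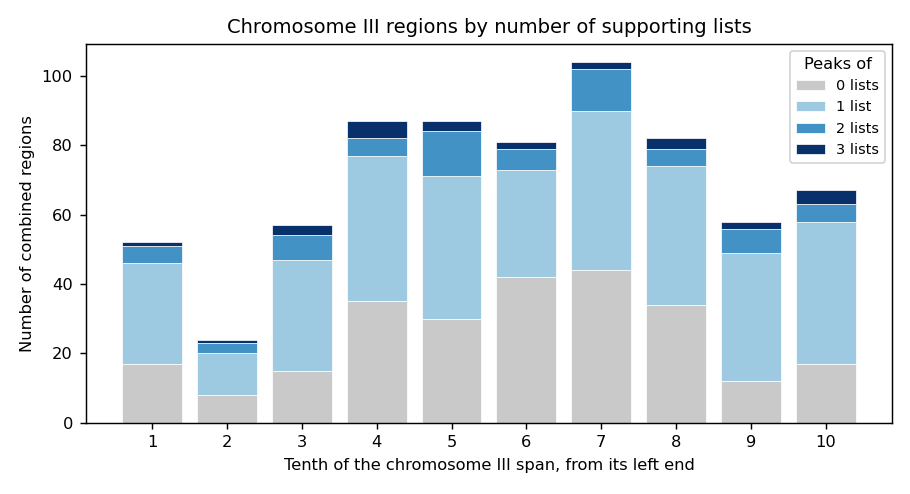
Number of combined regions (y axis) in each of 10 equal bins of the chromosome III span from its left end (x axis), with colours for the number of lists that had a peak in the region. Bin 2 has 24 regions and bin 7 has 104, and regions without a list peak are most numerous in bins 6 and 7, with 42 and 44.

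Among windows of 100 kb, of which 6 of 138 held no region and the median held 5, the most crowded was 8700001 to 8800000 with 14 regions that covered 19.5% of it. Of the 14, 4 had no list peak, 8 had peaks of 1 list, 2 had peaks of 2 lists and none had all 3, a makeup that was not tested against the 36.3% without a list peak and 13.4% with at least 2 lists on the whole chromosome. The window's highest score was 3.43 in list 1, for the region from 8796198 to 8799293. Neither of the other lists had a peak in that region, although its score stood at percentile 96.3 of list 1.

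Replicate support was limited. A peak of at least 1 list lay in 445 of the 699 regions (63.7%, against 61.3% of all combined regions). Peaks of at least 2 lists lay in 94 (13.4%, against 12.4%). Peaks of all 3 lists lay in 26 (3.72%, against 3.95%), and no list had a peak in 254 (36.3%, against 38.7%). Each of these shares is near that of the whole file. The 351 regions of a single list came from list 1 in 116 cases, from list 2 in 103 and from list 3 in 132. Of the 68 regions with exactly 2 lists, 24 joined lists 1 and 2, 28 joined lists 1 and 3, and 16 joined lists 2 and 3.

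Width went with support. Regions that no list supported had a median width of 896.5 bp, those of 1 list 1093 bp, those of 2 lists 2000 bp and those of all 3 lists 2820.5 bp. None of the 26 regions of all 3 lists was under 1051 bp. Under 500 bp were 41 of the 254 regions without a list peak and, in a similar share, 57 of the 351 of 1 list. This order is partly built in, because a region that joins shifted peaks of several lists is wider than each of them. The peaks themselves showed it as well. In list 1 their median width was 1032 bp in regions of 1 list, 1292 bp in regions of 2 lists and 1670 bp in regions of all 3. The corresponding medians were 964, 1150 and 1459.5 bp in list 2, and 937, 1285 and 1694 bp in list 3. A wider peak also has more bases by which to overlap another, and that part of the order was not tested.

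**Figure D2:**
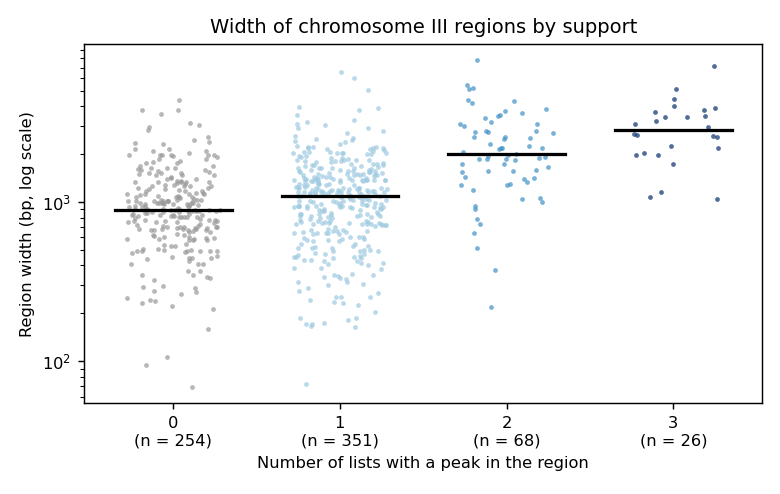
Width of each chromosome III region in bp (y axis, log scale) by the number of lists with a peak in it (x axis); points are regions and black bars are medians. The medians are 896.5, 1093, 2000 and 2820.5 bp from 0 to 3 lists, with wide overlap between neighbouring classes.

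The lists held 197, 170 and 206 peaks on chromosome III for replicates 1, 2 and 3, a mean of 191 ± 18.7 (SD, n = 3 lists). All 573 peaks lay entirely within a combined region. Peaks covered 254, 227 and 245 kb. The authors' scores had medians of 2.26, 2.725 and 2.085, ranging from 1.76 to 5.09 in list 1, from 2.05 to 4.35 in list 2 and from 1.49 to 4.97 in list 3. The authors' FDR was 0.001 or lower for 66.0%, 65.9% and 74.8% of the peaks on the chromosome, against 68.8%, 68.7% and 71.9% of all peaks of the lists. List 2 thus had the fewest peaks on the chromosome and the highest median score, and list 3 the most peaks and the lowest median score. On the other nuclear chromosomes the median scores had the same order, at 2.35, 2.68 and 2.1. List 2 had the fewest peaks there too, with 988 against 1012 in list 1 and 1008 in list 3.

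High-scoring peaks recurred more often. From the lowest to the highest scoring of 3 equal classes of peaks, the share in regions with another list rose from 24.2% to 62.1% in list 1, from 31.6% to 52.6% in list 2 and from 18.8% to 55.1% in list 3. Among the 10 highest-scoring peaks of each list, 8 recurred for list 1, 4 for list 2 and 8 for list 3. The top of list 2 was therefore the least often shared, with 6 of its 10 peaks in regions of list 2 alone. These shares describe peaks of the same lists and carry no test.

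The region from 4015547 to 4019572, on the left side of the chromosome, had the highest lowest-of-3 score. Its peaks scored 4.93, 4.28 and 4.97 in lists 1, 2 and 3, which put them at percentiles 99.9, 99.1 and 99.7 of their lists. It was the only one of the 26 regions of all 3 lists to lie above the 90th percentile in every list. The authors' FDR was 1.49e-15, 5.09e-09 and 9.03e-18. The 3 peaks had 1490 bp in common, from 4015608 to 4017097, which was exactly the extent of the list 2 peak. Lists 2 and 3 began at the same base and lists 1 and 3 ended at the same base. Downstream of 4018849 the region went on without a peak in any list.

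A second left-side region, from 3619456 to 3623885, scored 3.58, 3.31 and 3.48, a mean of 3.46 ± 0.137 (SD over 3 lists). Lists 1 and 3 called one identical peak from 3619993 to 3621980, and list 2 called the whole region. On the right side, the region from 11111256 to 11113503 scored 3.10, 2.93 and 3.37, at percentiles 91.9, 67.3 and 97.4 of the lists. Lists 1 and 3 covered it in full and list 2 covered 68.8% of it. Its FDR was 0.00105, 0.00699 and 2.22e-05.

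In the central segment, the region from 6392687 to 6395636 scored 3.21, 2.77 and 3.11, at percentiles 93.9, 57.4 and 94.7 of the lists. Its common part, from 6393158 to 6394998, had 1841 bp. The region from 4871419 to 4873164 scored 2.77, 2.98 and 2.73, and all 3 lists called it with the same first and last base. Only 1 other region shared this identity, from 2917937 to 2919021 on the left, but its scores of 3.43, 3.09 and 1.93 differed more. Identical peaks in all 3 lists therefore did not imply similar scores.

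The remaining regions within the first 12 by lowest score each fell under 2.70 in at least 1 list. From 4494673 to 4497764 the scores were 2.69, 3.22 and 2.83, where the 3 best peaks shared 472 bp within its 3092 bp. The region from 12746525 to 12749136 scored 3.06, 3.24 and 2.67, with one shared end in all 3 lists at 12748938. These scores stood at percentiles 90.7, 83.8 and 84.1. By lowest percentile this region came before those that begin at 11111256, 6392687, 4871419 and 4494673, which rank higher by raw score. The region from 9700193 to 9707333 was the widest of the 26, with 7141 bp and scores of 2.66, 3.12 and 2.69. The common part of its best peaks had 718 bp, or 10.1% of its width. The list 3 peak, from 9701186 to 9707333, contained the best peaks of the other lists. List 1 had 2 peaks in the region, and only its best peak counts in the common part.

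Of the next 4 regions, 1 fell below the median of a list. Scores were 3.02, 2.64 and 2.49 for the region from 4333406 to 4337104, whose list 2 score was at percentile 45.3. Scores were 2.72, 3.06 and 2.47 for the region from 5501787 to 5505570, which stood at percentiles 75.2, 74.4 and 74.4 and so at nearly the same rank in each list. The region from 11475110 to 11480251 scored 2.63, 3.17 and 2.38. Its best peaks had only the base 11477783 in common, where the peak of list 3 ended and the best peak of list 1 began. List 1 had 2 peaks in the region, which together covered 59.8% of it, so this base does not measure all that the lists shared. The region from 6805426 to 6807601 scored 3.02, 2.85 and 2.37 and had a common part of 1138 bp.

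Over all 26 regions the lowest of the 3 scores had a median of 2.355 and went down to 1.58. In 13 of them every score was above the median of its list, in 3 every score was above the 75th percentile, and in 1 every score was below the median. That one, from 4304412 to 4306390, scored 1.98, 2.44 and 1.58 and shared a single base between the 3 peaks. The lowest raw score came from list 3 in 16 regions, but by percentile within the lists the lowest value came from list 2 in 12, from list 3 in 9 and from list 1 in 5. List 3 also had the lowest scores as a whole.

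**Figure D3:**
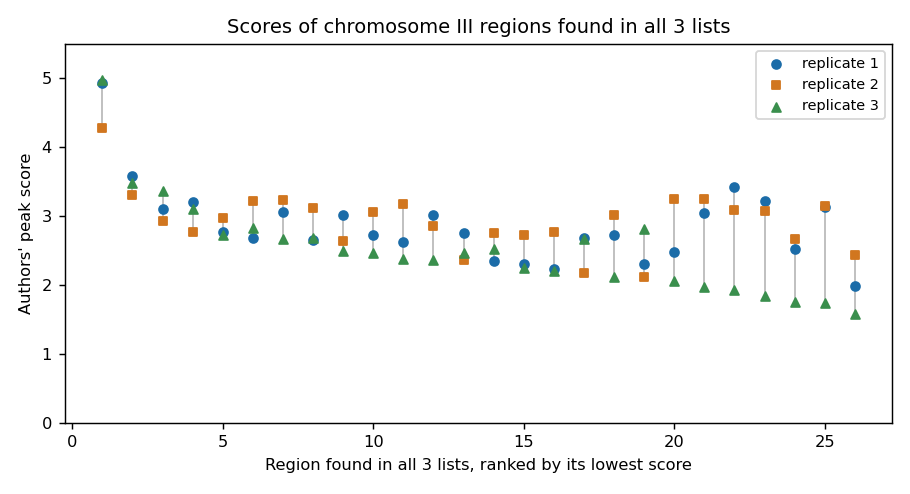
Authors' peak score (y axis) of the highest-scoring peak of each list in the 26 chromosome III regions found in all 3 lists, ranked by their lowest score (x axis); grey lines span the 3 values of a region. The first region stands apart at 4.28 to 4.97, and at high ranks the list 3 score is the lowest, down to 1.58.

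In the 3 regions with the largest SD over lists (0.808, 0.786 and 0.760), list 3 had the lowest score. For the region from 649722 to 653619, lists 1 and 2 scored 3.13 and 3.15, while list 3 scored 1.74. Lists 1 and 2 covered 95.05% and 90.25% of that region, but the list 3 peak covered 10.6% of it, from 650811 to 651223. The region from 9494507 to 9497163 was alike, with scores of 3.22, 3.08 and 1.84 and a list 3 peak on 11.97% of its length. In both, list 3 recovered a small part of what lists 1 and 2 called as a broad peak.

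The boundaries of the peaks often coincided. In 21 of the 26 regions at least 2 lists shared the first or the last base, and all 3 lists shared the first base in 2 and the last base in 5. A base common to the best peaks of the 3 lists existed in 25 regions, with a median common length of 809 bp (from 1 to 2890 bp), or 32.4% of the region. In 4 of the 26 regions a list had 2 peaks, and the common length leaves out the lower-scoring one. The exception, from 13070653 to 13072639, had a list 2 peak that ended at 13071390 before the list 1 peak began at 13071603. Dam methylates GATC and DpnI cuts at methylated GATC, so fragment ends can be limited to such sites; whether the coinciding bases are GATC was not tested.

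**Figure D4:**
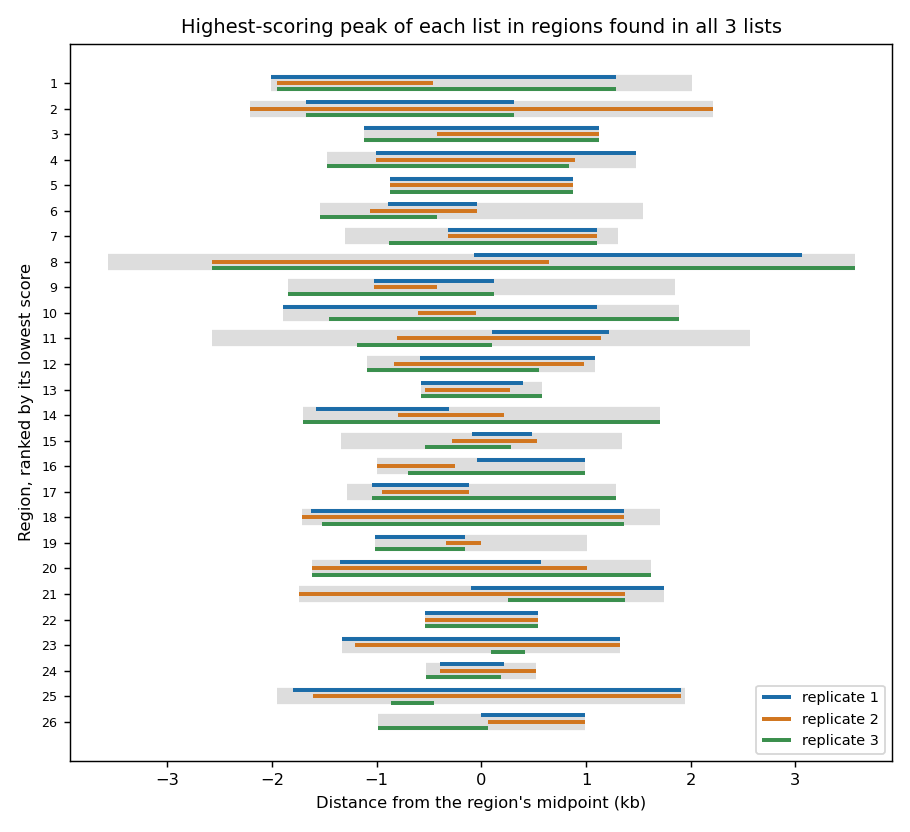
Extent of the highest-scoring peak of each list (coloured lines) within the 26 regions found in all 3 lists (grey bars, ranked by lowest score on the y axis), as distance in kb from the midpoint of the region (x axis). Peaks coincide in the 2 regions called identically, share ends in many others, and leave parts of some regions without a peak of these 3.

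Across the chromosome the 26 regions were a median of 365 kb apart, from 29.9 to 1765 kb between midpoints. Close pairs under 100 kb occurred 4 times, and the closest joined the regions at 4304412 and 4333406. By segment, 8 lay on the left, 7 in the centre and 11 on the right. The central share was 26.9% (95% Wilson interval 13.7 to 46.1%, counting error only), and with so few regions the interval includes both an even spread and the 41.6% of all regions.

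Some of the highest scores on the chromosome were missing from list 3. The region from 1051960 to 1054451 had the highest list 1 score, 5.09, and a list 2 score of 3.91, at percentile 97.5 of its list. List 3 had no peak in it. Likewise the region from 13651950 to 13655785 scored 4.77 and 3.27 in lists 1 and 2, with an FDR of 7.00e-25 and 9.18e-29, and had no peak in list 3. The regions from 6130361 to 6134106 (2.99 and 2.96) and from 6135792 to 6137350 (2.87 and 3.45) were also joint calls of lists 1 and 2, and lay 1685 bp apart. These 4 had the highest lower raw score among regions of exactly 2 lists, a ranking that places regions with the lower-scoring list 3 further down. By the lower percentile within the lists, 2 regions of lists 1 and 3 came next after the one at 1051960, from 12335385 to 12336384 (percentiles 91.9 and 90.5) and from 13728742 to 13730987 (91.9 and 85.0), both named after their values were seen.

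Regions of a single list also reached high scores. The highest were in list 2, with 4.35 for the region from 11992103 to 11993561 and 4.16 for that from 12501989 to 12502622. In list 3 they were 3.85 for the region from 4753933 to 4755030 and 3.24 for that from 12994312 to 12995665. In list 1 the region from 11919470 to 11920650 scored 3.15, below the 3.43 in the crowded central window. The medians of single-list regions were lower, at 2.18 in list 1, 2.67 in list 2 and 1.975 in list 3, against 2.72, 2.995 and 2.47 for peaks in regions of all 3 lists.

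The 254 regions without a peak in any list were narrower in the median, and more of them were central. Of these, 48.0% lay in the central segment (95% Wilson interval 42.0 to 54.2%), against 38.0% of the 445 regions with a list peak (33.6 to 42.6%). These intervals hold counting error only and regions are not replicates, so the difference was not tested. The same order held on each other chromosome, with 51.9 against 35.5% on I, 47.2 against 38.6% on II, 49.8 against 39.2% on IV, 47.6 against 44.8% on V and 37.2 against 30.8% on X. Seen by segment, 41.9% of central regions had no list peak, against 30.3% on the left and 33.7% on the right. By bin the share was highest in bin 6, at 51.9%, and lowest in bin 9, at 20.7%. The widest such regions ran from 4764600 to 4768959 (4360 bp), from 9464984 to 9468783 (3800 bp) and from 9696014 to 9699805 (3792 bp). The last of these ended 387 bp before the 7141 bp region of all 3 lists. Of the regions without a list peak, 11.8% lay within 1500 bp of a supported region, and 17.8% of supported regions lay as close to another supported one.

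Most supported regions were exactly as long as the merged list peaks within them (361 of 445). The other 84 were longer, by a median of 668.5 bp and at most 4159 bp. Longer regions made up 15.7% of those of 1 list, 26.5% of those of 2 lists and 42.3% of those of all 3. In total 338 kb of the 924 kb in regions lay outside any list peak. How the combined file was made is not stated in the sources used here.

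Pairs of lists overlapped to a similar extent on chromosome III. Of the list 1 peaks, 25.4% overlapped a list 2 peak and 27.9% a list 3 peak, and of the list 2 peaks 24.7% overlapped a list 3 peak. In the other direction 28.2% of list 2 peaks and 25.7% of list 3 peaks overlapped list 1, and 21.4% of list 3 peaks overlapped list 2. On the other nuclear chromosomes the shares were close, with 27.1% and 26.7% of list 1 peaks overlapping lists 2 and 3 and 23.0% of list 2 peaks overlapping list 3. Overlapping peaks had an end in common in 27 of 50 pairs for lists 1 and 2, in 26 of 56 for lists 1 and 3 and in 16 of 44 for lists 2 and 3. These are 54.0%, 46.4% and 36.4% of the pairs, against 44.0%, 43.1% and 35.4% on the other chromosomes, differences that were not tested. Scores ran together between lists 1 and 2 (Spearman's rho 0.46 across 50 regions), less between lists 1 and 3 (0.23 across 54 regions) and not between lists 2 and 3 (0.01 across 42 regions). The correlations are descriptions across regions that share libraries, and regions are not replicates.

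Peaks in the central segment scored slightly lower in each list. Median scores in the centre and in the outer segments were 2.2 and 2.31 in list 1, 2.595 and 2.745 in list 2, and 2.025 and 2.14 in list 3. The mean difference was -0.125 ± 0.022 (SD, n = 3 lists), lower in the centre in 3 of 3 lists. The two-sided exact permutation test over lists gave p = 0.25, the smallest that 3 lists allow, and 0.50 after Benjamini-Hochberg adjustment over the 6 comparisons made in this way. The share of peaks that were central varied more, with 39.1%, 31.8% and 42.7% in lists 1, 2 and 3. List 2 placed 54 peaks in the centre against 77 and 88 in the other lists, whereas the left segment held 50, 49 and 50 and the right segment 70, 67 and 68. The lists thus differed in number of peaks mostly in the central segment.

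**Figure D5:**
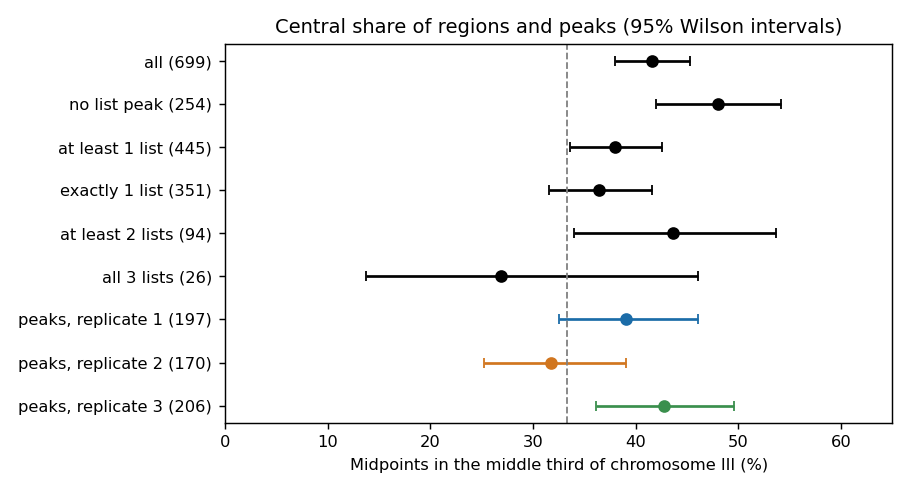
Share of midpoints in the middle segment of chromosome III (x axis, percent) for sets of regions (black, by number of lists with a peak) and for the peaks of each list (coloured), with numbers in brackets and 95% Wilson intervals as bars. The dashed line marks an even spread, 33.3%; regions without a list peak are at 48.0% and the peaks of list 2 at 31.8%.

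Chromosome III was set against the other nuclear chromosomes in 5 comparisons with the list as the replicate. The share of regions with a peak of a list was 27.8%, 24.2% and 28.9% for lists 1, 2 and 3 (26.2%, 25.2% and 26.2% of all combined regions), and differed from the other chromosomes by a mean of 1.27 ± 2.26 percentage points (SD, exact permutation p = 0.50, higher in 2 of 3 lists). The median score differed by -0.020 ± 0.068 (exact permutation p = 0.75, lower in 2 of 3). Peaks were narrower on chromosome III in 3 of 3 lists, with differences in the median of -96, -129 and -20.5 bp, but the exact permutation p of 0.25 is the smallest possible. The other chromosomes here include X, where the median region width was 1243 bp. It was 1074 bp on III and from 1059 to 1117 bp on the other autosomes. Peak widths were not compared with the autosomes alone. The recurring share of peaks differed by 0.499 ± 1.75 percentage points (exact permutation p = 1), and the central share of peaks, against the other autosomes, by -2.27 ± 1.79 points (exact permutation p = 0.25, lower in 3 of 3). Adjusted p-values over the 6 comparisons ran from 0.50 to 1. None of these differences could pass a threshold of 0.05 with 3 lists, and those in support, score and recurrence were smaller than the spread between lists.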

How the data were processed

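The deposited files were 3 peak lists and 1 file of combined regions. Per the labels, each list belongs to the tagged and the control sample of 1 number, so replicates were not pooled. Per the labels' protocols, larvae were grown at 25 degrees for 24 h on food, DNA was cut with DpnI and amplified over 4 and 19 PCR cycles, and amplicons were sequenced on a MinION. The submitters' processing notes name minimap2, SAMtools and ce10; the peak caller is not given in the sources used here. The score of each peak is the authors' deposited value, of unstated scale. The FDR is also the authors', under the 0.01 in the list names.

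Starts of combined regions were raised by 1. A peak was attached to a region by an overlap of at least 1 bp, and a region took the highest-scoring peak of each list. Percentiles are ranks within a whole list. Differences between chromosomes were tested by exact two-sided sign flips over 3 lists. Shares have Wilson intervals. Scripts ran under Python 3.11.15 with scipy 1.17.1, pandas 2.3.3 and numpy 2.4.6. The overlap code made 0 wrong calls on 600 simulated regions. Regions named are the 12 of all 3 lists with the highest lowest score, 4 of exactly 2 lists, 2 of each list alone, the 3 widest of all and the 3 widest without a list peak, the densest window, the widest gap, and the first and last; others were chosen after their values were seen. The members and comparisons were chosen with earlier results of these data known. Genes and sequences at the regions were not analysed here, since the gene table used for names is on another assembly than ce10.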

Additional observations from a re-analysis of the deposited data

How the results depend on the processing

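The counts of supported regions depended on which peaks were admitted. With only the upper 50% of each list by score, 217 regions had a peak of at least 1 list, 49 of at least 2 and 13 of all 3, as fewer peaks can support fewer regions. Instead of 445, 94 and 26, the counts were 308, 63 and 21 at an FDR at or under 0.001. With a gap of up to 1500 bp they were 471, 128 and 37. Shares over all combined regions are not given for these settings. Requiring an overlap of 50% of the shorter interval could not change the main counts, because all 573 peaks lay entirely within a combined region. Without one replicate, 313 to 342 regions had a peak of at least 1 remaining list and 42 to 54 had peaks of both, which is another quantity than support by all 3. The central share was 63.4% with the centre as the middle 50% of the span, where an even spread would place 50%. With the central segment used above, it was 48.0% for regions without a list peak and 38.0% for those with one. The mean score difference from the other chromosomes turned to 0.015 without replicate 1 (range without one replicate -0.0525 to 0.015), a setting chosen after seeing the data. The difference in recurring share turned to -0.486 without replicate 2 (range -0.486 to 1.19). The mean difference in supported share was above 0 in each setting run for it, from 0.336 to 2.53 points without one replicate. It was 0.251 points with the upper 50% of each list. These settings share lists, and in list 2 alone the difference was -1.23 points. Peaks per list ranged from 183.5 to 201.5 without one replicate and came to 132 at the stricter FDR. The central score difference was -0.0767 at the stricter FDR. No paired analysis was possible because the pairing by replicate number is built into every list that was deposited. The setting that needs the length of chromosome III in a genome of the same build was not run. Depth is unknown and limits every statement on a missing peak.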
